A study of Homo sapiens with 2 samples.

Results

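The guidance genes of HepG2 cells, which encode the ephrins and Eph receptors, the semaphorins with their plexin and neuropilin receptors, the Jagged and Notch proteins, SLIT2 and ROBO1, were examined after fluid shear stress (FSS) and in static culture. HepG2 cells are an established human line grown from a hepatic tumor, and FSS is the tangential force that flow exerts on them. The FSS group was exposed to flow for 8 h, and the static group was cultured without flow. Each group had 1 library, made from 3 replicates that were mixed, at passage 10 to 15. Expression was given in FPKM (fragments scaled to transcript length in kilobases and to 1000000 mapped), so levels can be compared between genes. With 1 library per group no difference has a replicate check, and no test, SD or p-value could be given. Genes were taken by symbol: all names starting with SEMA, PLXN, EFNA, EFNB, EPHA or EPHB, with NRP1, NRP2, ROBO1, SLIT2, NOTCH1, NOTCH2, JAG1 and JAG2. This gave 33 genes (81 transcripts) of 11589 in the table, 19 ligands and 14 receptors. NOTCH3 and other family members without a row were not analysed here.

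These genes carry signals between touching or neighbouring cells. Ephrins sit in the membrane, A-type by a lipid anchor and B-type by a transmembrane domain, and bind Eph receptor tyrosine kinases on the next cell. Semaphorins bind plexins, and most of the secreted class 3 semaphorins also need neuropilins. Jagged ligands make the Notch receptor release its intracellular part, which acts in the nucleus, and secreted SLIT2 binds ROBO1. Most of these systems were known first as cues for growing axons, and they also control adhesion and migration of epithelial and tumor cells.

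Changes were expressed as log2 of FPKM + 1 in FSS divided by FPKM + 1 in static cells. The words higher and lower are used from 1.5-fold of FPKM + 1 onwards, and the added 1 understates the change of low genes. Of the 33 genes, 31 had at least 0.5 FPKM in at least 1 library, and EFNA2 and PLXNB1 were below. Of the 31, 5 were higher in FSS (16.1%, against 10.5% of all 11221 genes) and 11 were lower (35.5%, against 29.5% of all genes). Their median log2 ratio was -0.16, beside -0.25 for all genes. These uncentred shares and the median lie near those of the whole table, so no shift is read for the genes as a class. The account below is of single genes and pairs. Centring means subtracting the median (-0.23) of the 7898 genes that reached 5 FPKM in either library. After it, 8 of the 31 were higher and 10 lower. Both shares were then above those of all genes (17.8% and 17.9%), in both directions, and this was not tested.

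**Figure D1:**
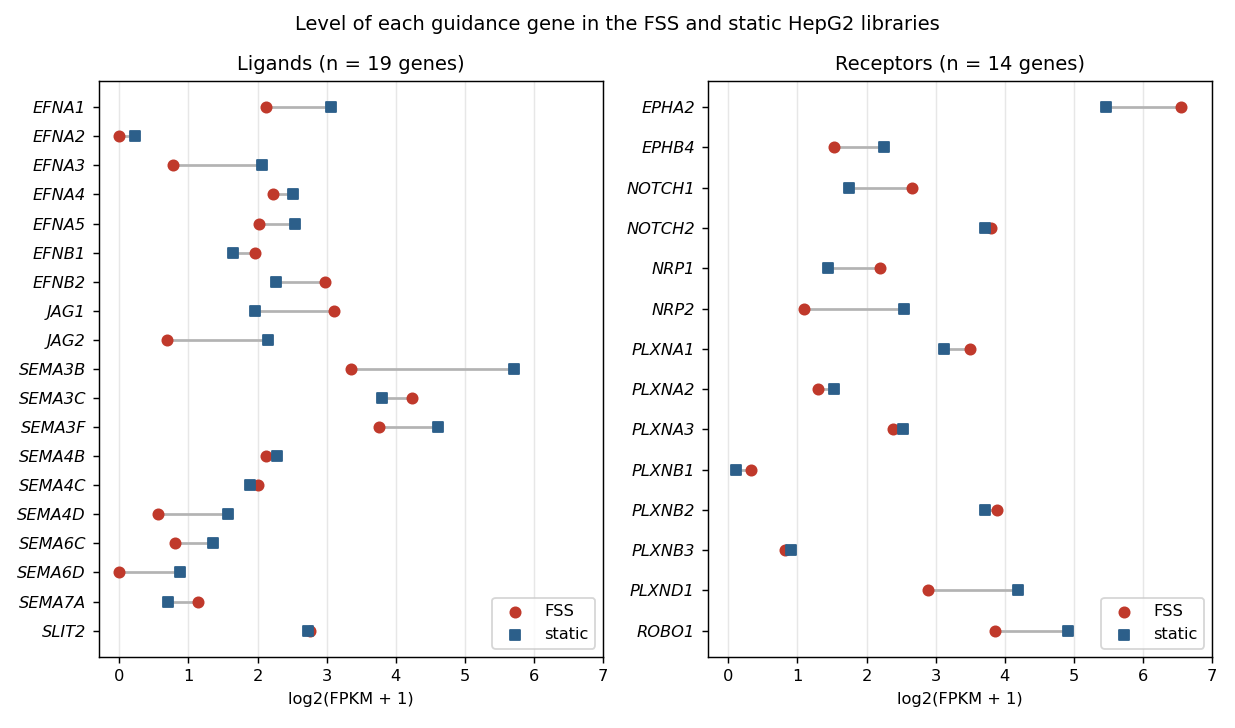
Level of each of the 33 guidance genes as log2(FPKM + 1), ligands on the left and receptors on the right. Red circles are the FSS library, blue squares the static library and grey lines join them. EPHA2 lay above the other receptors in both libraries, and SEMA3B had the widest gap, at 9.17 FPKM in FSS and 51.5 FPKM in static cells.

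**Figure D2:**
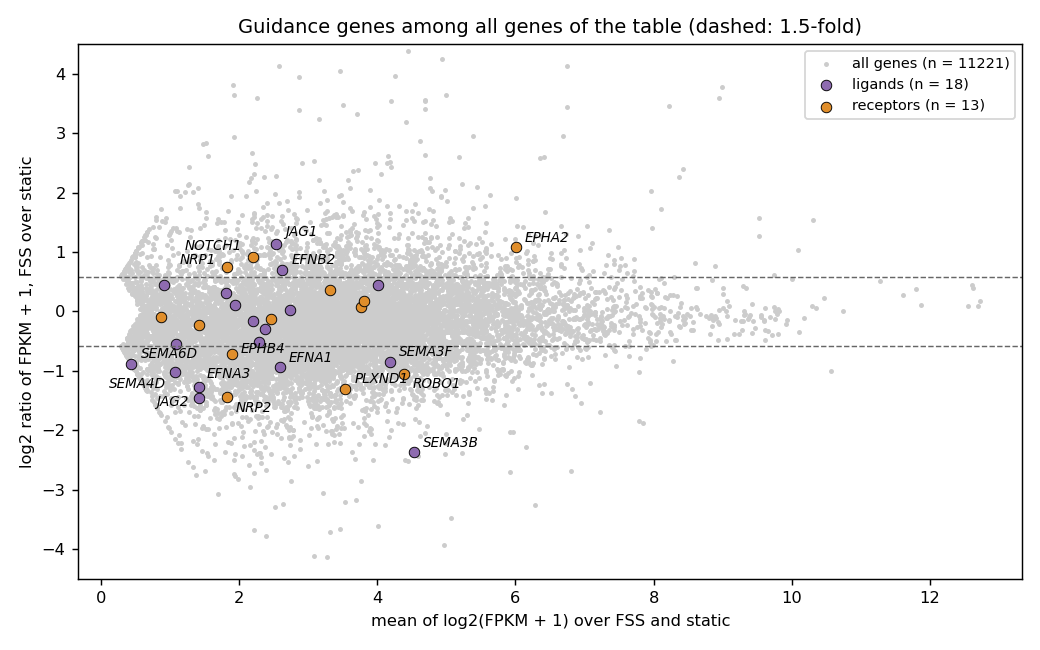
Log2 ratio of FPKM + 1, FSS over static, against the mean of log2(FPKM + 1) over both libraries. Grey points are all 11221 genes (3 lie outside the plot), purple points 18 ligands and orange points 13 receptors, and dashed lines mark 1.5-fold. The named genes are the 5 higher and 11 lower ones, and they lie on both sides of 0 within the cloud of all genes.

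The table held few genes of hepatocyte identity. Of 16 hepatocyte markers 4 had a row, with FOXA1 at 7.41 FPKM in FSS and 5.69 FPKM in static cells and CEBPA at 0.755 FPKM in FSS and 2.16 FPKM in static cells. ASGR1 and AMBP were under 0.2 FPKM in FSS and listed at 0 in static cells, and the other 12 were not analysed here. Several guidance genes are also prominent in endothelium, fibroblasts and neurons. Of 6 endothelial markers CDH5 had a row, at 0.634 FPKM in FSS and 0.818 FPKM in static cells. The 3 of 6 fibroblast markers with a row summed to 12.2 FPKM in FSS and 41.7 FPKM in static cells, with COL1A1 at 5.15 and 28.0 FPKM in the same order. The 3 of 5 neuronal markers with a row summed to 3.92 FPKM in FSS and 5.59 FPKM in static cells. Of 5 leukocyte markers CD68 had a row, at 5.22 FPKM in FSS and 1.56 FPKM in static cells. Both libraries are labelled HepG2, and a part of other cells in the values below was not tested. In RNA of whole cultures, fewer cells expressing a gene and less RNA per cell cannot be told apart.

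EPHA2 was the most abundant receptor, JAG1 was the ligand with the highest ratio, and both were higher in FSS. The 300 bases around the start of each are printed from RefSeq (GRCh38.p14, 250 bases before the start and 50 after), with motif matches in capitals. The motifs searched on both strands were GGAATG (bound by TEAD, the partner of YAP), TGACTCA (AP-1), TGGGAA (RBPJ, the partner of Notch) and GGGCGG (the GC box).
EPHA2 chr1:16156020-16156319, minus strand: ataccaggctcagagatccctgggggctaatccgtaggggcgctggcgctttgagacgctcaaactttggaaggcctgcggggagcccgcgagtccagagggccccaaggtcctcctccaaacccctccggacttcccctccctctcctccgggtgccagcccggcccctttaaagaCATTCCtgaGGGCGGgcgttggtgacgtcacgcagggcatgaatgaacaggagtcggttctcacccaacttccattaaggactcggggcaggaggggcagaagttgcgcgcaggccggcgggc
JAG1 chr20:10673950-10674249, minus strand: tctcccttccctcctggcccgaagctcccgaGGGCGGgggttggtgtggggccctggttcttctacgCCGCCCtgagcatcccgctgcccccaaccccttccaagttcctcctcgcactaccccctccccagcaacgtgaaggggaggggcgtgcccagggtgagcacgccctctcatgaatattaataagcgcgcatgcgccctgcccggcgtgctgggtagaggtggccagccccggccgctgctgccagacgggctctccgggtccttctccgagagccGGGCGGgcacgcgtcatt
The EPHA2 window held 1 TEAD match and 1 GC box, and the JAG1 window held 3 GC boxes. Of the 33 genes 32 had windows, 46 in all, and NRP1 had none. The TEAD motif was in 13.0% of the 46 windows, against 14.0% of 35116 windows of all genes. The RBPJ motif was in 23.9% of the 46 windows and 24.0% of all windows, and the AP-1 motif in 0 of 46 and 4.95% of all. The GC box was in 80.4% of the 46 windows and 45.0% of all windows, and the median GC content was 70.5% in the 46 windows and 58.7% in all windows. A match is a stretch of letters and shows no binding.

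In the ephrin and Eph system the receptor EPHA2 was higher in FSS, and the A-type ephrins it binds were lower or within 1.5-fold. EPHA2 (ENSG00000142627), a receptor tyrosine kinase common on epithelial and carcinoma cells, was at 92.3 FPKM in FSS cells and 43.1 FPKM in static cells, a log2 ratio of 1.08. Among 11221 genes it ranked 522 in FSS cells and 1339 in static cells, with a single listed transcript. EPHB4, a receptor for ephrin-B2, was at 1.90 FPKM in FSS and 3.79 FPKM in static cells, a log2 ratio of -0.72 that was within 1.5-fold after centring. Its transcript EPHB4-201 was at 0.924 FPKM in FSS and 3.79 FPKM in static cells, and EPHB4-202 at 0.975 FPKM in FSS and listed at 0 in static cells, so the lower call rests on EPHB4-201. The Eph sum was thus 98.0% EPHA2 in FSS and 91.9% in static cells.

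EFNA1, the A-type ephrin best known as a partner of EPHA2, was at 3.34 FPKM in FSS cells and 7.31 FPKM in static cells, a log2 ratio of -0.94. EFNA3 was at 0.715 FPKM in FSS and 3.16 FPKM in static cells. EFNA4 and EFNA5 were within 1.5-fold, with log2 ratios of -0.30 and -0.52. All 4 A-type ephrins past the filter thus had a ratio below 0, as had the median of all genes. EFNA3 and EFNA4 both share exons with the overlapping locus AL691442.1, so their reads may be shared. The B-type ligands were on the other side. EFNB2, a ligand of EPHB4, was at 6.86 FPKM in FSS cells and 3.83 FPKM in static cells, a log2 ratio of 0.70. EFNB1 was at 2.90 FPKM in FSS and 2.13 FPKM in static cells, within 1.5-fold. Summed, A-type ephrins were at 10.8 FPKM in FSS and 20.2 FPKM in static cells, and B-type at 9.77 FPKM in FSS and 5.96 FPKM in static cells. The ratio of A-type to B-type was 1.11 under FSS and 3.39 in static cells. The ratio of EPHA2 to the A-type sum was 8.55 in FSS and 2.13 in static cells. These ratios within a library do not move with the scale set between libraries.

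The Jagged ligands went opposite ways. JAG1 (ENSG00000101384) was at 7.60 FPKM in FSS cells and 2.90 FPKM in static cells, a log2 ratio of 1.14, the highest of the 31 genes. JAG2 was at 0.609 FPKM in FSS and 3.44 FPKM in static cells, a log2 ratio of -1.46. JAG1 made up 92.6% of the Jagged sum in FSS and 45.8% in static cells, while the sum itself was 8.21 FPKM in FSS and 6.34 FPKM in static cells. Of the receptors, NOTCH1 was at 5.32 FPKM in FSS cells and 2.35 FPKM in static cells, a log2 ratio of 0.92. NOTCH2 was at 12.9 FPKM in FSS and 12.2 FPKM in static cells, within 1.5-fold, and remained the more abundant of the pair, with 70.8% of the Notch sum in FSS and 83.8% in static cells. NOTCH2 has near-identical partial copies in the human genome, so its value is uncertain.

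Other genes of the Notch pathway went both ways, with ratios of the nuclear partners and targets mostly below 0. Of 25 measured genes of Notch processing and its control 2 were higher and 7 lower (5 and 4 after centring), near the 10.5% and 29.5% of all genes (17.8% and 17.9% centred). Their median log2 ratio of -0.25 was that of all genes. ADAM17, a protease that cleaves membrane proteins including Notch, was at 24.6 FPKM in FSS and 13.0 FPKM in static cells. FURIN, which cuts the Notch precursor, was at 17.1 FPKM in FSS and 34.6 FPKM in static cells, and NCSTN, a subunit of gamma-secretase, at 23.8 and 40.7 FPKM in the same order. Of 15 measured nuclear partners and targets 1 was higher and 4 lower, with a median of -0.47 (1 and 1 after centring, with a median of -0.24). Most of them had ratios below 0 before and after centring, and this was not tested. RBPJ, the DNA-binding partner of Notch, was at 5.91 FPKM in FSS and 11.0 FPKM in static cells. HES7, a HES family repressor, was at 1.51 FPKM in FSS and 17.2 FPKM in static cells. Of 3 further measured ligands and receptors of the family 0 were higher and 1 lower (0 and 0 after centring).

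The semaphorins were the ligands with the largest loss of summed FPKM, and 1 transcript of SEMA3B made up most of it. Semaphorin FPKM summed to 48.3 in FSS cells and 99.4 in static cells. None of 9 genes was higher and 4 were lower (centred, 2 and 4). Over all genes 10.5% were higher and 29.5% lower (centred, 17.8% and 17.9%), and with 9 genes no excess is read. SEMA3B (ENSG00000012171), a secreted semaphorin studied as a tumor suppressor, was at 9.17 FPKM in FSS cells and 51.5 FPKM in static cells, a log2 ratio of -2.37, the lowest of the 31 genes. It was the most abundant guidance gene in static cells and the eighth most abundant in FSS cells. The transcript SEMA3B-210 was at 1.90 FPKM in FSS and 43.4 FPKM in static cells. The other SEMA3B transcripts summed to 7.27 FPKM in FSS and 8.16 FPKM in static cells, a log2 ratio of -0.15, so the lower call rests on that transcript.

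SEMA3F, a secreted semaphorin that signals through NRP2, was at 12.5 FPKM in FSS cells and 23.3 FPKM in static cells. Its log2 ratio was -0.85, and its leading transcript differed between the libraries. SEMA3F-202 was listed at 0 in FSS cells and was at 16.5 FPKM in static cells, whereas SEMA3F-206 was at 8.25 FPKM in FSS cells and listed at 0 in static cells. SEMA3F-201 was at 3.83 FPKM in FSS and 3.87 FPKM in static cells. Without SEMA3F-202 the gene was at 12.5 FPKM in FSS and 6.87 FPKM in static cells, a log2 ratio of 0.78, so its direction turns on that transcript. In GENCODE release 29 (GRCh38) SEMA3F-206 starts 3928 bases downstream of SEMA3F-202. SEMA3F-201, which was level between the libraries, starts only 38 bases downstream of SEMA3F-202. SEMA3F-207, which also starts close to SEMA3F-202, was at 0.0982 FPKM in FSS and 2.54 FPKM in static cells. A change from the upstream to the downstream start was not tested. The windows around the starts of SEMA3F-202 (upstream) and SEMA3F-206 (downstream) are shown, and a further SEMA3F window between them was left out.
SEMA3F upstream chr3:50154808-50155107, plus strand: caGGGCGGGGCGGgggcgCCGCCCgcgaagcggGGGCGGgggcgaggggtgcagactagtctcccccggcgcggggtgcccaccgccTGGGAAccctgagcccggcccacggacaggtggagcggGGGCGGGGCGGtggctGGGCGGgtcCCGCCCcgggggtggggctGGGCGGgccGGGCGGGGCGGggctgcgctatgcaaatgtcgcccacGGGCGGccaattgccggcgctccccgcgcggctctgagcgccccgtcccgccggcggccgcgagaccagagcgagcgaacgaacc
SEMA3F downstream chr3:50158769-50159068, plus strand: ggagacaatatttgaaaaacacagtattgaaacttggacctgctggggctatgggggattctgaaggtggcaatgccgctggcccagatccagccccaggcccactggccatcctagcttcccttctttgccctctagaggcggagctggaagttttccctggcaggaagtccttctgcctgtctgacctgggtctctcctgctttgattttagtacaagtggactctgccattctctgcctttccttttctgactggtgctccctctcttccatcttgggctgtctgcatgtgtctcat
SEMA3F-202 starts inside the upstream window, which had 81.3% GC, 12 GC boxes, some of which share letters, and 1 RBPJ match. SEMA3F-206 starts inside the downstream window, which had 53.0% GC and 0 matches of the 4 motifs. Both transcripts are estimated from reads over shared exons, and exons of SEMA3F-AS1 lie on the other strand. With strand not given in the sources used here, reads of SEMA3F-AS1 and SEMA3F cannot be told apart.

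SEMA3C, a secreted semaphorin, was at 17.8 FPKM in FSS cells and 12.9 FPKM in static cells, a log2 ratio of 0.44 that was 0.67, past 1.5-fold, after centring. It was the most abundant semaphorin in FSS cells, with 36.9% of the semaphorin sum, against 13.0% in static cells. The membrane-bound semaphorins were low, with SEMA4B the most abundant of them in both libraries. SEMA4B was at 3.35 FPKM in FSS and 3.86 FPKM in static cells, and SEMA4C at 3.01 and 2.70 FPKM in the same order. SEMA4D, a ligand of plexin-B1, was at 0.474 FPKM in FSS and 1.98 FPKM in static cells, by a different transcript in each. SEMA6D was listed at 0 in FSS and was at 0.841 FPKM in static cells, SEMA6C was at 0.751 FPKM in FSS and 1.55 FPKM in static cells, and SEMA7A at 1.20 FPKM in FSS and 0.624 FPKM in static cells.

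**Figure D3:**
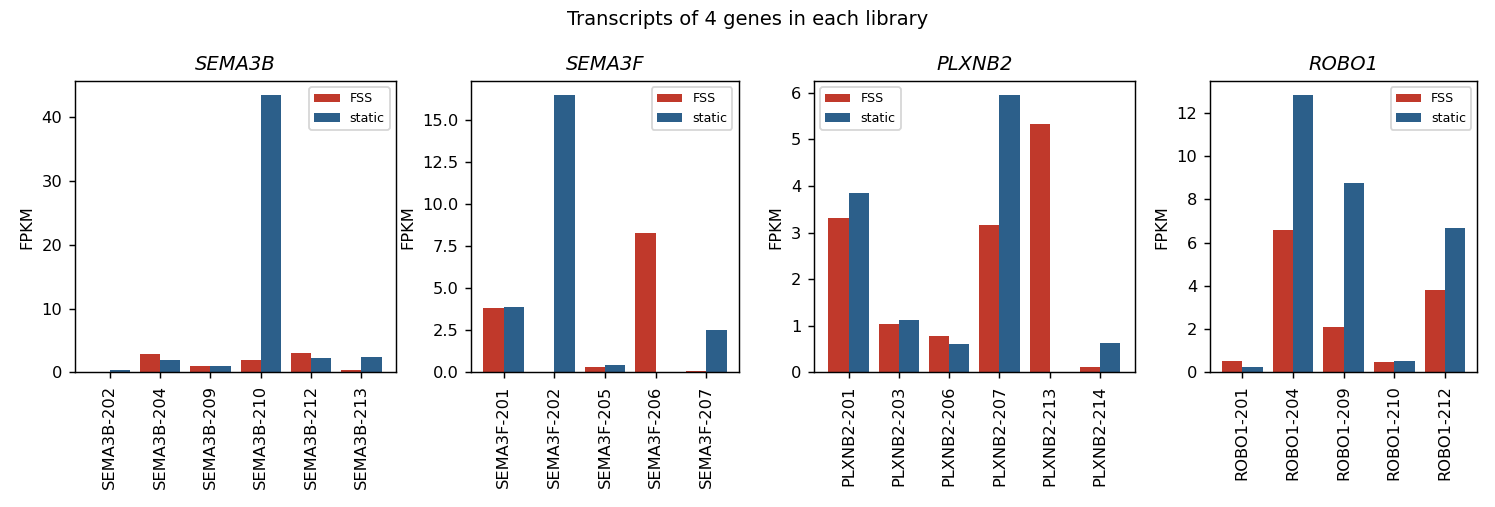
FPKM of each listed transcript of SEMA3B, SEMA3F, PLXNB2 and ROBO1 that was above 0 in at least 1 library, red for FSS and blue for static. SEMA3B-210 was at 1.90 FPKM in FSS and 43.4 FPKM in static cells, SEMA3F-202 and SEMA3F-206 each stood in 1 library alone, and the 3 abundant ROBO1 transcripts were all lower in FSS.

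Among receptors of semaphorins, the neuropilins went opposite ways, PLXND1 was lower, and the other plexins stayed within 1.5-fold. NRP1, co-receptor for class 3 semaphorins and VEGF, was at 3.55 FPKM in FSS cells and 1.73 FPKM in static cells, a log2 ratio of 0.74. NRP2 was at 1.14 FPKM in FSS and 4.82 FPKM in static cells, a log2 ratio of -1.44. NRP1 was 75.7% of the neuropilin sum in FSS and 26.4% in static cells. Without the NRP1 transcript that differed most the log2 ratio of NRP1 was 0.45, within 1.5-fold, while that of NRP2 without its own was -0.97. PLXND1, receptor for SEMA3E, was at 6.39 FPKM in FSS cells and 17.2 FPKM in static cells, a log2 ratio of -1.30, and PLXND1-201 carried nearly all of it, at 5.90 FPKM in FSS and 17.2 FPKM in static cells. PLXNB2 was at 13.8 FPKM in FSS and 12.1 FPKM in static cells, and PLXNA1 at 10.3 FPKM in FSS and 7.73 FPKM in static cells. After centring, PLXNA1 was past 1.5-fold (0.60). PLXNA2, PLXNA3 and PLXNB3 had log2 ratios between -0.23 and -0.09, and PLXNB1 was at 0.253 FPKM in FSS and 0.0824 FPKM in static cells. The even sum of PLXNB2 covered transcripts that went apart, with PLXNB2-213 at 5.34 FPKM in FSS and 0.000383 FPKM in static cells and PLXNB2-207 at 3.16 FPKM in FSS and 5.95 FPKM in static cells. PLXNB2-213 (3443 bases) starts 24559 bases downstream of PLXNB2-207 (6383 bases).

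Of the 27 measured genes that carry plexin signals 1 was higher and 14 lower (centred, 3 and 8). Over all genes 10.5% were higher and 29.5% lower (centred, 17.8% and 17.9%). The median log2 ratio of the plexin list was -0.61, beside -0.25 for all genes. DPYSL2, which encodes the collapsin response protein CRMP2, was at 8.97 FPKM in FSS and 23.1 FPKM in static cells. ERBB2, a kinase that associates with plexin-B receptors, was at 5.58 FPKM in FSS and 14.6 FPKM in static cells. RAP1B, a small GTPase of the kind plexins inactivate, was at 67.8 FPKM in FSS and 29.5 FPKM in static cells. Of the 25 measured genes downstream of Eph receptors 2 were higher and 8 lower (centred, 3 and 5), near the shares of all genes, and the median was -0.33. ABL2, a cytoskeletal tyrosine kinase, was at 57.7 FPKM in FSS and 11.4 FPKM in static cells. The adaptor GRB2 was at 7.94 FPKM in FSS and 49.4 FPKM in static cells, and VAV3, an exchange factor, at 4.44 FPKM in FSS and 27.1 FPKM in static cells.

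ROBO1 was lower in FSS while its ligand was level. ROBO1 (ENSG00000169855), the receptor for SLIT2, was at 13.5 FPKM in FSS cells and 29.0 FPKM in static cells, a log2 ratio of -1.05. Its 3 abundant transcripts were each lower, with ROBO1-204 at 6.60 FPKM in FSS and 12.8 FPKM in static cells, ROBO1-209 at 2.09 FPKM in FSS and 8.77 FPKM in static cells, and ROBO1-212 at 3.82 FPKM in FSS and 6.70 FPKM in static cells. SLIT2 was at 5.74 FPKM in FSS cells and 5.64 FPKM in static cells, a log2 ratio of 0.02. Of 8 measured further genes of SLIT, ROBO and netrin signaling 1 was higher and 2 lower (centred, 2 and 2), with a median of -0.11. These counts are near the shares over all genes, 10.5% higher and 29.5% lower (centred, 17.8% and 17.9%). GPC1, a proteoglycan that binds SLIT2, was at 24.0 FPKM in FSS and 15.0 FPKM in static cells, and SRGAP2, a GTPase-activating protein that binds ROBO1, at 6.34 FPKM in FSS and 12.9 FPKM in static cells. NTN4, which encodes netrin-4, was at 10.3 FPKM in FSS and 6.94 FPKM in static cells.

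Set against receptors, ligands had the lower median, by an amount that depended on the processing. Of 18 ligands past the filter 2 were higher (11.1%) and 7 lower (38.9%), with a median log2 ratio of -0.41. Of 13 receptors 3 were higher (23.1%) and 4 lower (30.8%), with a median of -0.09. Over all genes 10.5% were higher and 29.5% lower, and their median of -0.25 lay between the ligand and receptor medians. The difference of the ligand and receptor medians was -0.32, smaller than 1.5-fold on the log2 scale (0.585), and was not tested. It shrank to -0.05 with the highest transcript of each gene, -0.15 with a pseudocount of 5, -0.15 with a filter at 5 FPKM and -0.11 without the transcript that differed most. With the filter at 5 FPKM the ligand median was 0.02, against 0.17 for receptors. Ligand FPKM summed to 82.8 in FSS and 137.5 in static cells, and receptor FPKM to 167.8 in FSS and 141.6 in static cells. Both sums leaned on 1 gene. Without SEMA3B the ligands summed to 73.6 FPKM in FSS and 86.0 FPKM in static cells, and without EPHA2 the receptors summed to 75.5 FPKM in FSS and 98.6 FPKM in static cells. The receptor sum was thus higher in FSS with EPHA2 and lower without it.

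**Figure D4:**
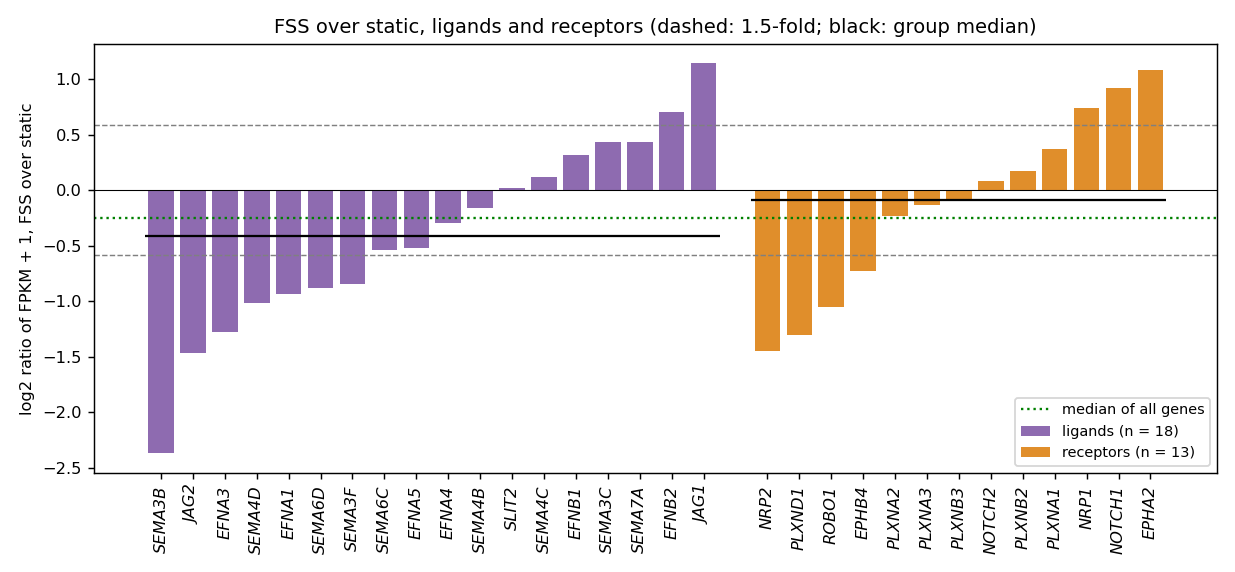
Log2 ratio of FPKM + 1, FSS over static, for 18 ligands (purple) and 13 receptors (orange) in rising order. Black lines are the group medians (-0.41 and -0.09), dashed lines mark 1.5-fold and the green dotted line is the median of all genes (-0.25). Both groups span higher and lower genes, from SEMA3B to JAG1 and from NRP2 to EPHA2.

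**Figure D5:**
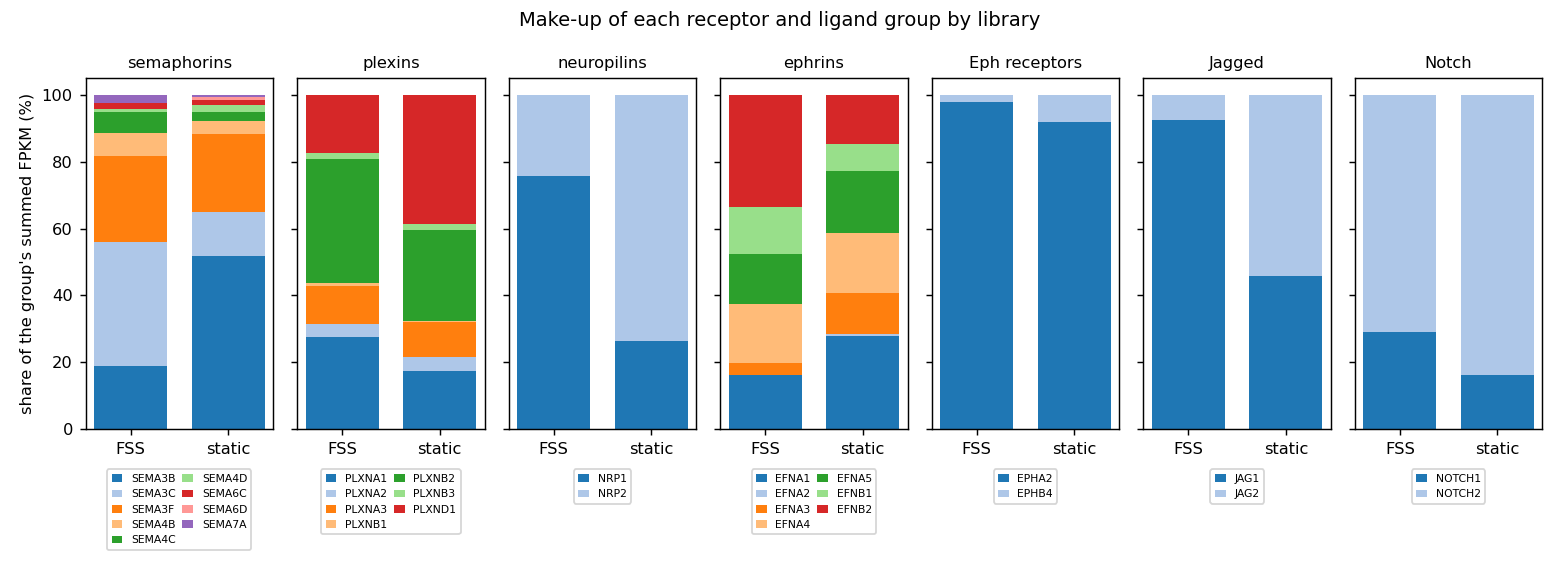
Share of the summed FPKM of each group held by each gene, with FSS left of static in each panel. The major neuropilin was NRP1 in FSS and NRP2 in static cells, JAG1 took 92.6% of the Jagged sum in FSS against 45.8% in static cells, and PLXND1 took 17.2% of the plexin sum in FSS against 38.5% in static cells.

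Of the 33 genes 13 had a single listed transcript. Among the 19 others past the filter, 10 had a different leading transcript in each library (52.6%, against 26.5% of 8102 such genes in the table). Of the 81 transcripts 19 were listed at 0 in 1 library alone (23.5%, against 11.0% of all 34714). These shares were not matched for level or for the number of transcripts per gene, and were not tested. Of 3 guidance genes with more than 1 transcript at or above 5 FPKM, PLXNB2 and SEMA3F had transcripts that differed by 1.5-fold in opposite directions, against 26.1% of 2088 such genes in the table. From 1 FPKM, it was 3 of 11 guidance genes (27.3%, SEMA4B being the third), the same share as over 5950 genes (27.3%). EPHA2, JAG1, NOTCH1 and EFNB2 each had a single listed transcript, so their values did not involve a division between listed transcripts. Whether reads were divided with transcripts that are not listed was not checked. Exons of a gene on the other strand overlapped those of 7 genes, JAG1, EFNB2, NRP1, NRP2, EPHB4, PLXNA3 and SEMA3F. The study had picked 9 of the 33 genes for its own list of migration genes on these samples, so their differences are not independent evidence. The 9 were EPHA2, JAG1, NOTCH1, EFNB2, ROBO1, PLXND1, SEMA3B, SEMA3F and SEMA4C. That list was filtered by p-value and by a fold change of at least 1.5. SEMA4C was within 1.5-fold here, at 3.01 FPKM in FSS and 2.70 FPKM in static cells.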

How the data were processed

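Total RNA of 2 libraries of HepG2 cells, FSS and static, each a mix of 3 replicates, was sequenced. The authors deposited FPKM per transcript, estimated with StringTie and extracted in Ballgown with a cutoff of 0.5, by the study's methods. The deposited values nonetheless include genes below that cutoff in both libraries, such as EFNA2 and PLXNB1. The submitters' processing notes also name cutadapt, HISAT2 2.0.5, STAR 2.5.2b and hg19. The table held 34714 transcripts of 11589 genes, with FPKM sums of 323352 (FSS) and 325712 (static). Read depth is unknown, so no counting error can be given. There were 0 further value columns.

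FPKM were summed by gene symbol, and a gene was kept from 0.5 FPKM in either library. Guidance genes of 5 FPKM or more in either library were named with both values, others by counts, range or example. Of each pathway list up to 3 genes were named, those with the widest log2 ratio and a mean of at least 5 FPKM. One gene that this rule picks is not reported here. The genes and lists were chosen with earlier results of these data known. Transcript lengths and starts came from GENCODE release 29, for the 76 of 81 transcripts whose gene version was the same, and promoter windows from RefSeq. The steps were tested on simulated data, with changes set only in genes of at least 5 FPKM. Changes of lower genes and the division of reads between transcripts were not simulated, so the calls that rest on them were not checked. Alternatives were other pseudocounts, filters, folds and scales, the highest transcript and, added after seeing the data, no pseudocount and leaving out the transcript that differed most. Python 3.11.15, pandas 2.3.3, numpy 2.4.6 and matplotlib 3.10.9 were used.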

Additional observations from a re-analysis of the deposited data

How the results depend on the processing

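EPHA2, JAG1, PLXND1, ROBO1 and SEMA3B kept their 1.5-fold call under every other pseudocount, filter, fold and scale tried and with the highest transcript alone, and SEMA3B lost it without SEMA3B-210 (-0.15). EFNA1, EFNB2, NOTCH1 and NRP1 came within the threshold with a pseudocount of 5 and at a fold of 2, and SEMA3F at a fold of 2. With a pseudocount of 5, 2 of the 31 genes were higher and 6 lower, with 1 ligand higher and 3 lower and 1 receptor higher. At a fold of 2, 2 were higher and 7 lower, with 1 ligand higher and 4 lower and 1 receptor higher. After centring 8 were higher, 4 of them ligands. With a filter at 5 FPKM 5 of 14 were lower, 3 ligands and 2 receptors. Without the transcript that differed most 29 genes passed the filter, and 6 of them were lower, 4 ligands and 2 receptors. The SEMA3F log2 ratio was then 0.78, the SEMA3 family median 0.44 and EPHB4 0.98, with EPHB4 listed at 0 in static cells. NRP1 came within 1.5-fold there. PLXND1 and SEMA4D, both lower before, fell below the filter of 0.5 FPKM, so part of the fall in lower genes is their removal. The highest transcript, no filter, rescaling to a sum of 1000000, a pseudocount of 0.1 and no pseudocount moved none of these counts by over 1.5 times. The ligand less receptor median difference ranged from -0.34 with a pseudocount of 0.1 to -0.05 with the highest transcript, and the ligand median changed sign with the filter at 5 FPKM (0.02). No paired analysis was possible because each group had 1 library. FPKM carry no depth, so how far low genes such as JAG2, NRP2 and the SEMA4 and SEMA6 genes differ beyond counting error cannot be stated.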
